A study of Mus musculus with 22 samples.

Results

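H3K27ac peak lists of differentiated (24 h) and undifferentiated (0 h) G1ER cells were compared region by region, to learn which genes lay nearest to the regions that differed. The 4 lists, 2 per time point, were merged where their peaks touched. A region was gained when it held a peak in both 24 h lists and in neither 0 h list, and lost in the reverse case. Of 21972 merged regions, 844 were gained and 1038 were lost, 13915 held a peak in all 4 lists, and 6175 showed other patterns. G1ER (G1E-ER4) is a single mouse erythroid progenitor line without endogenous *Gata1*, carrying a GATA1 fusion protein that acts once estradiol binds its estrogen receptor portion. All groups carried that transgene and grew in stem cell factor and erythropoietin. The 24 h cells, like those taken at 2, 6 and 12 h, had β-estradiol added, and the 0 h cells had none. The series holds 22 peak lists, with 2 per time point for H3K27ac and for H3K4me3 and 1 each at 0 h and 24 h for CTCF.

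Acetylated lysine 27 of histone H3 (H3K27ac) marks active promoters and enhancers, and H3K4me3 marks mainly active promoters. GATA1 binds short GATA motifs, often together with TAL1, and drives red cell maturation while it turns off genes of the progenitor and mast cell programs. Maturing erythroblasts take up iron, make heme and globin, rebuild their membrane skeleton and leave the cell cycle. Because the cells were profiled in bulk, fewer cells with the mark and less of the mark per cell cannot be told apart.

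The members were mostly distal and mostly weak. Transcription start sites (TSS) of protein-coding genes fell in 61 gained regions (7.23%) and 129 lost regions (12.4%), against 56.9% of the regions with a peak in all 4 lists. Introns held 45.4% of gained and 31.9% of lost regions, and 26.1% and 44.0% lay between genes. The other 180 gained and 121 lost regions touched an exon without a TSS. Within its own list, the peak of a gained region had a median score percentile of 11.1, and that of a lost region 11.8, taking the lower of the 2 lists. When peaks under the median score were left out, 10 of the 844 gained and 34 of the 1038 lost regions still met the rule. By construction, leaving out 1 list made the rule easier to meet. Without 24 h replicate 1 or 2 the gained regions numbered 1606 and 1877, and without 0 h replicate 1 or 2 or 24 h replicate 1 the lost regions numbered 1916, 2043 and 1661.

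The lists share a limit on peak length that touches some members. None of the 179311 peaks in the 10 H3K27ac lists was longer than 8973 bp. Peaks of all 10 lists were therefore also joined across gaps of at most 2 kb, and stretches of 6 kb or more were called wide, a definition made after the values were seen. Wide stretches held 103 gained and 165 lost regions, among them 80 of the 129 lost regions at a TSS. The 5000 to 5999 bp stretches just below the limit held 15 gained and 26 lost regions, and those of 6000 to 6999 bp held 23 and 19. Whether longer acetylated stretches are missing from some lists was not tested, so genes in wide stretches are named as such.

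Before the values, a few stretches of sequence show what the regions hold. Each is 200 bases of GRCm38 (mm10), plus strand, with the GATA letters (AGATAA or AGATAG and also TGATAA or TGATAG, read on both strands) in capitals. The first 3 are from gained regions, at *Btg2* between genes (chr1:134086987-134087186) and in introns of *Jak1* (chr4:101246029-101246228) and *Slc11a2* (chr15:100391542-100391741). The next pair comes from lost regions, at *Cpa3* (chr3:20223258-20223457, overlapping a coding exon) and between genes near *Klf3* (chr5:64864966-64865165). These 5 windows were chosen after the values were seen. Each had the most matches among the bases that both lists' peaks covered, with windows free of untranslated exon sequence (UTR) taken first. Windows found in this way at *Erfe*, *Cish*, *Slc38a5* and *Kit* are not shown. In the *Slc11a2* window, 101 of the 200 bases are repeat-masked.
Btg2: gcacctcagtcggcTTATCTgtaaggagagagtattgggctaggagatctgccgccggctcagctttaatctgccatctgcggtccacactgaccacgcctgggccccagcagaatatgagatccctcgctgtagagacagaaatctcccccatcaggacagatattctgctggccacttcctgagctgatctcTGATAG
Jak1: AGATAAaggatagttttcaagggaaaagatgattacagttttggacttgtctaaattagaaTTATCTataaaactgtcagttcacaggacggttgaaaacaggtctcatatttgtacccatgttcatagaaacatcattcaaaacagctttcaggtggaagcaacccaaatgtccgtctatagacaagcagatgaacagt
Slc11a2: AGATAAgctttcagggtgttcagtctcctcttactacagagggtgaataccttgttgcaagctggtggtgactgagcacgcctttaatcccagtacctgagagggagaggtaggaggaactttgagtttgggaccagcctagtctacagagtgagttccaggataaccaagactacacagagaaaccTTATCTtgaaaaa
Cpa3: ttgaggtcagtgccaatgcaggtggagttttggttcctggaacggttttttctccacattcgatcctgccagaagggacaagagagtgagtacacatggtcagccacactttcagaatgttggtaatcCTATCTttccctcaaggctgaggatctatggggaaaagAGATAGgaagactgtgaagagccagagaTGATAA
Klf3: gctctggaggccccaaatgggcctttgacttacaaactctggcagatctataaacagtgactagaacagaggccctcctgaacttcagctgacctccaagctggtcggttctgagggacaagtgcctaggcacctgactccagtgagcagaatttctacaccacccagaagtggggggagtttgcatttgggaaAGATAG

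In contrast, 200 bases from a gained region in an intron of *Dpf3* (chr12:83385837-83386036) and of a lost region between genes near *Larp1* (chr11:57954206-57954405, in a wide stretch) held 0 matches. Each lies in the middle of the bases that both lists' peaks covered. They are shown because the naming rule, and not a motif, chose them. The windows do not stand for the central 500 bases counted below. There the *Dpf3* region held 1 match, and the lost *Klf3* region shown above held 0. In the *Larp1* window, 170 bases are repeat-masked.
Dpf3: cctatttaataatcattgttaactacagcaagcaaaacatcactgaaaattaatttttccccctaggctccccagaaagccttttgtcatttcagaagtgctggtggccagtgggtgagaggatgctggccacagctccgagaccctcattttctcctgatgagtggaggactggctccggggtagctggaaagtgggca
Larp1: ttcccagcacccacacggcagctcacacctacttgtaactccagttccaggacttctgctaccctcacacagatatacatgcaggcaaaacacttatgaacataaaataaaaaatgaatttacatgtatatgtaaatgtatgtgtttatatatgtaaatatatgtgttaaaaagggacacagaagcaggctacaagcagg

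Over the whole set, the GATA letters were found in the central 500 bases of 79.3% of gained and 69.4% of lost regions without a TSS and outside wide stretches. The share was 68.0% in regions without a TSS and with a peak in all 4 lists, and 56.1% over all merged regions. The same letters written backwards (AATAGA or AATAGT and also GATAGA or GATAGT) were in 54.6%, 53.4%, 48.8% and 42.7% of these sets. Gained and lost regions thus lay closer together in the backward letters than in the GATA letters. Because GATAGA or GATAGT can overlap a match of the GATA letters, the backward letters are not an independent control. A CTG followed 7 or 8 bases later by the GATA letters, the spacing at which TAL1 and GATA1 are known to bind together, was in 11.8% of gained and 8.13% of lost regions, in 10.9% of the regions without a TSS that held a peak in all 4 lists, and in 7.09% of all. Lost regions held TGANTCA, the AP-1 motif, in 20.5% of cases, against 13.5% of gained regions, 16.5% of those without a TSS in all 4 lists, and 13.7% of all regions. GAGGAAG, an ETS motif, was in 22.5% of lost, 17.4% of gained and 20.2% of all regions, and in 21.9% of those without a TSS in all 4 lists. The E-box CAGNTG (75.3%, 70.6%, 71.5% and 69.6% for gained, lost, without a TSS in all 4 lists, and all), the RUNX motif TGTGGTT (13.9%, 13.6%, 13.6% and 11.0%) and the KLF motif CCNCNCCC (44.3%, 39.7%, 43.6% and 51.0%) were read on both strands in the same way. Median GC content was 46.8% in these gained regions, 45.2% in the lost, 46.8% in those without a TSS in all 4 lists and 49.0% in all, and a match is a match of letters only, not a bound site. With a window of 1000 bases the GATA letters were in 92.1% of all gained and 87.2% of all lost regions, against 75.5% and 66.1% with 500.

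**Figure D1:**
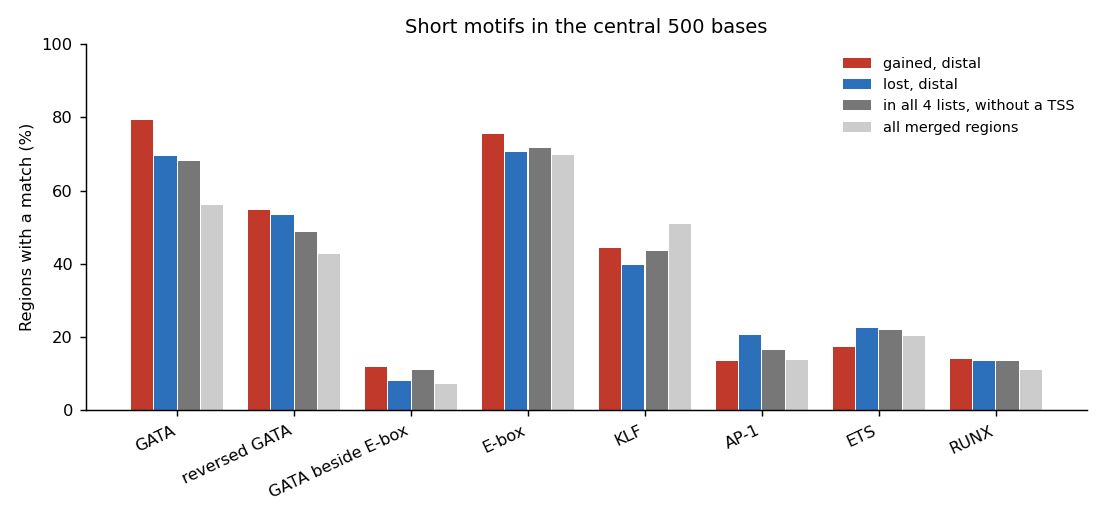
Share of regions (%, vertical axis) whose central 500 bases hold each short motif on either strand, for gained and lost regions without a TSS and outside wide stretches, regions without a TSS in all 4 lists, and all merged regions. The GATA letters were in 79.3% of gained and 69.4% of lost distal regions, while the backward letters were in 54.6% and 53.4%.

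The 2, 6 and 12 h lists took no part in the choice of members, and show when the peaks appeared or disappeared. A peak was already present at gained regions in 31.3% and 34.4% of cases after 2 h (replicates 1 and 2), in 45.1% and 48.7% after 6 h, and in 57.8% and 57.6% after 12 h. Lost regions still held a peak in 59.0% and 62.9% of cases after 2 h, 56.2% and 55.2% after 6 h, and 47.1% and 46.1% after 12 h. Regions with a peak in all 4 lists held one in 98.2% to 98.9% of cases in every intermediate list. At each time the replicates lay closer together than neighboring times for gained regions. The 0% and 100% at 0 h and 24 h are fixed by the rule. All 6 intermediate lists held a peak at 89 gained regions (10.5%) and 184 lost regions (17.7%), and none did at 145 (17.2%) and 97 (9.34%).

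**Figure D2:**
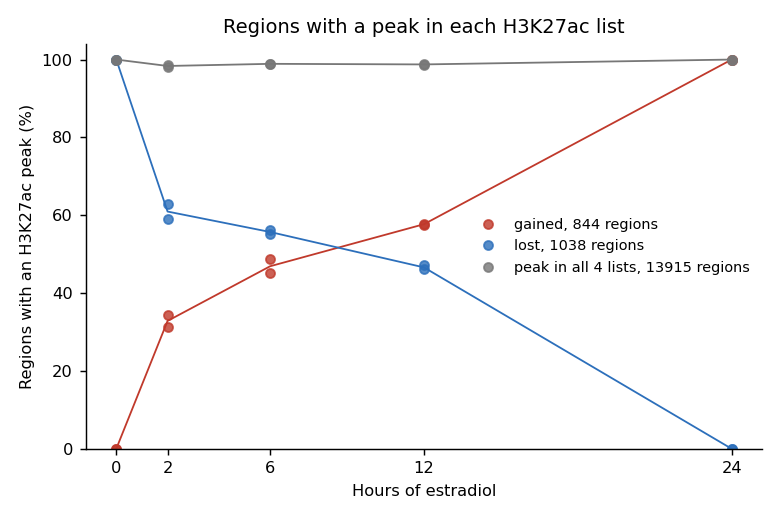
Share of regions with an H3K27ac peak (%, vertical axis) against hours of β-estradiol (horizontal axis), where points are the 2 replicate lists and lines join their means. Gained regions filled stepwise from 31.3% and 34.4% after 2 h to 57.8% and 57.6% after 12 h, and the 0 h and 24 h points are fixed by the rule.

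Regions were tied to the protein-coding gene with the nearest TSS, at most 100 kb away. By this rule 808 gained regions belonged to 747 genes and 855 lost regions to 775 genes. Of the 10832 genes nearest to any merged region, 6.90% had a gained and 7.15% a lost region, which is the background for every gene group below. Of the 425 genes of the functional lists that were nearest to any region, 45 (10.6%) had a gained and 47 (11.1%) a lost region. Outside wide stretches 35 and 31 of them remained. The lists overlap (*Kit* is on 3 of them), and their counts are descriptions without a test.

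**Figure D3:**
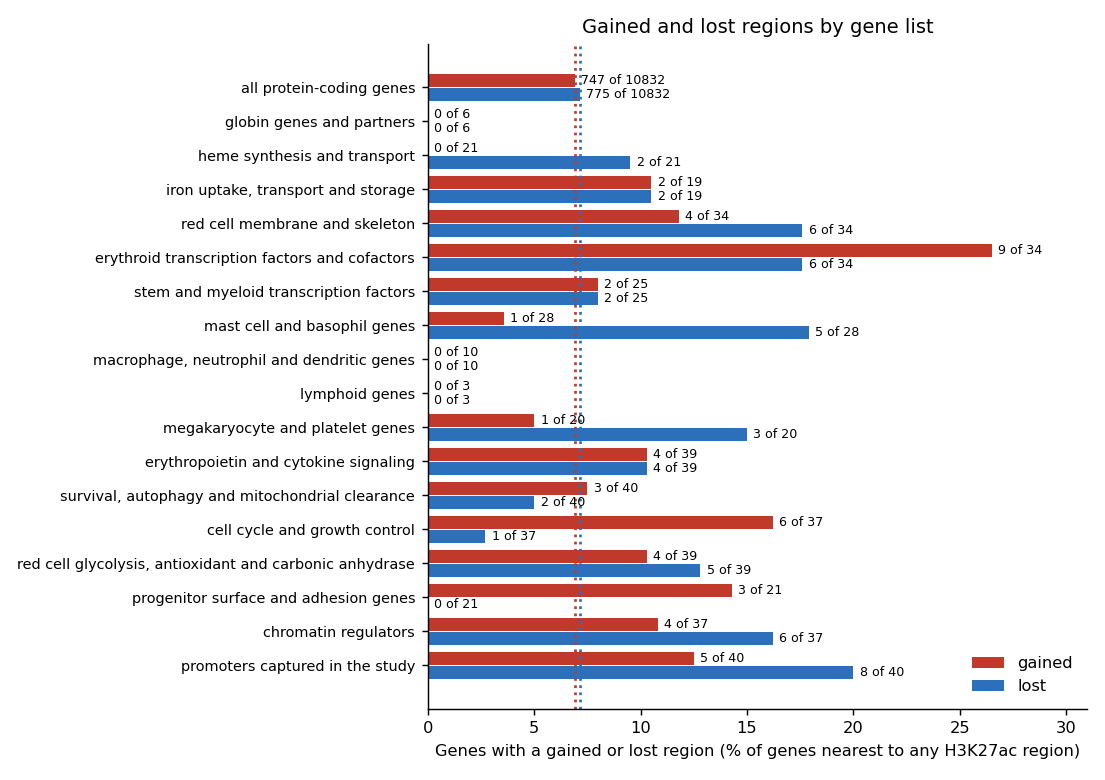
Share of the genes of each functional list that had a gained (red) or lost (blue) region (%, horizontal axis), with counts of genes beside the bars and the shares over all protein-coding genes as dotted lines (6.90% and 7.15%). Erythroid transcription factors had the largest gained share (9 of 34), and mast cell genes had 1 gained against 5 lost of 28.

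Genes for erythroid transcription factors and their cofactors had gained regions in 9 of 34 cases (26.5%) and lost regions in 6 (17.6%), with 6 and 3 outside wide stretches. Within 50 kb of a TSS the counts were 7 gained and 6 lost of 33. For genes in or within 10 kb of a region they were 6 gained (17.1%) and 7 lost of 35. Gained genes of this list thus outnumbered lost ones only when regions were tied to the nearest TSS. Foxo3, a forkhead factor active in late erythroblasts, gained an intronic region 57641 bp from its TSS. Its *Foxo3* peaks covered 2507 and 2212 bp after 2 h, 1867 and 2208 bp after 6 h, 2334 and 2197 bp after 12 h, and 2744 and 2792 bp after 24 h. All 6 lists that the rule did not use, at 2, 6 and 12 h, held the peak. *Cbfa2t3* (ETO2, a corepressor in the TAL1 complex) showed the same pattern in an intron, with 3064 and 2607 bp after 2 h and 2732 and 3340 bp after 24 h. So did *Nr2c1*, the orphan receptor TR2 that silences embryonic globin genes, with 1916 and 1765 bp after 2 h and 2356 and 1975 bp after 24 h. *Kdm1a* (the demethylase LSD1), *Tcf12* (an E-protein partner of TAL1) and *Klf3* (a repressor of the Krüppel-like family) gained distal regions too, the first pair with a peak in some intermediate lists and *Klf3* at 24 h alone. *Myb*, which keeps progenitors dividing, gained a stretch of 7792 and 8327 bp after 24 h with no peak in any earlier list. This *Myb* stretch, like the gained regions at *Runx1* and *Ikzf1*, was wide. Lost regions lay at *Foxo3* (858 bp from the TSS, score percentile 0.814), *Klf3* and *Klf13* and, in wide stretches, at *Runx1*, *Hic2* and *Ssbp3*. *Foxo3*, *Runx1* and *Klf3* thus had regions of both kinds.

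Iron genes had a gained region in 2 of 19 cases, *Erfe* and *Slc11a2*, and both lay outside wide stretches. With only 1 TSS per gene, 1 of 17 iron genes (5.88%) had a gained region, against 6.8% of all genes. *Erfe* encodes erythroferrone, the hormone by which erythroblasts lower hepcidin. Its region (chr1:91370916-91376255) began 222 bp from the TSS and held UTR and coding exon sequence. In all 4 lists, including those at 0 h, an H3K27ac peak lay within 1 kb of an *Erfe* TSS. Within the gained region itself no peak was present at 0 h. The *Erfe* peak there covered 2515 and 1371 bp after 2 h and 3165 and 3299 bp after 6 h. It covered 3562 and 3300 bp after 12 h, and 4367 and 4692 bp after 24 h. Both 24 h lists lay above all earlier ones, and this was the gained region of highest score outside wide stretches (percentile 57.0). *Slc11a2* encodes DMT1, which carries iron out of endosomes. Its peak (chr15:100389923-100393300, 9943 bp from the TSS) was absent from all 4 lists at 0 h and 2 h and covered 2246 and 3192 bp after 6 h, 2684 and 2118 bp after 12 h, and 3224 and 2773 bp after 24 h. The lost regions were at *Tfrc*, the transferrin receptor (10191 bp from the TSS, 668 and 725 bp at 0 h), and, in a wide stretch, at *Snx3*, which recycles that receptor.

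Among 34 genes of the red cell membrane and skeleton, 4 had a gained and 6 a lost region. The amino acid transporter gene *Slc38a5* gained its promoter (chrX:8270737-8272954), late. The *Slc38a5* peak was present in 1 of the 6 intermediate lists (707 bp after 12 h) and covered 1988 and 2127 bp after 24 h. H3K4me3 at *Slc38a5* was absent at 0 h and covered 1296 and 1021 bp after 24 h, with 585 bp in 1 list at 2 h and 571 bp in 1 list at 6 h. Its difference did not pass the test (limma, Benjamini-Hochberg adjusted p = 0.245). *Add1* (α-adducin of the membrane skeleton) gained a distal peak seen in the 24 h lists alone, 1746 and 1443 bp long. *Sptb* (β-spectrin) gained a peak of 1114 and 1201 bp that 1 list at 6 h and 1 at 12 h also held. Lost peaks included those near the glucose transporter genes *Slc2a1* and *Slc2a3*, the potassium channel gene *Kcnn4* and the channel gene *Aqp9*, and at the wide *Tpm1* promoter. The *Slc2a1* peak, 25422 bp from the TSS, kept 1123 and 1123 bp after 6 h against 907 and 1079 bp at 0 h, and was gone from 1 list at 12 h and both at 24 h.

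No gained or lost region was nearest to any of the 6 globin genes and partners with a region. The heme genes had 0 gained and 2 lost regions of 21, *Alad* and *Abcb10*, both at promoters in wide stretches. Of the genes for glycolysis, antioxidant enzymes and carbonic anhydrases, 4 of 39 had a gained region (*Car2*, *Gsr*, *Prdx1* and *Prdx6*) and none of these was wide. The *Car2* (carbonic anhydrase 2) peak lay 79056 bp from the TSS and covered 516 to 574 bp in the 7 of 8 later lists that held it. The *Gsr* (glutathione reductase) peak was in 7 of 8 later lists as well, with 969 and 1021 bp after 24 h. The 5 lost genes were *Hk1*, *Tkt*, *Cat*, *Pfkfb4* and *Car2*, and only the *Car2* peak (1021 and 850 bp at 0 h, 28983 bp from the TSS) lay outside wide stretches. The lost *Cat* peak had a score percentile of 0.703.

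Cell cycle and growth control genes had gained regions in 6 of 37 cases (16.2%) and a lost region in 1 (2.7%), the wide promoter of *Cdkn1b*. When regions were given instead to genes they overlapped or lay within 10 kb of, 3 of 42 (7.14%) had a gained and 2 a lost region, against 6.98% and 6.43% of all genes. Btg2 and Tob1 are antiproliferative proteins of one family, Sesn1 and Gadd45a are stress-induced growth regulators, and Max is the partner of MYC. *Btg2* gained a peak 6837 bp from its TSS (chr1:134085957-134087954), which held the GATA letters shown above. It was absent at 0 h and covered 1812 and 1472 bp after 2 h, 1870 and 1723 bp after 6 h, 1919 and 1791 bp after 12 h, and 1842 and 1656 bp after 24 h. Thus the full *Btg2* length was reached at 2 h, and between 12 h and 2 h the difference did not pass the test (0.16 on the log2(bp + 200) scale, SE 0.12, limma adjusted p = 0.725). *Tob1*, *Gadd45a*, *Max* and *Sesn1* gained peaks that 2, 3, 1 and 3 of the 6 intermediate lists held, respectively, and the sixth gene was *Myb*.

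Cytokine signaling genes had 4 gained and 4 lost of 39. *Jak1*, a kinase of cytokine receptors, gained 2 intronic regions, and the *Jak1* region shown above covered 2280 and 3125 bp after 2 h, 2960 and 1820 bp after 6 h, 2580 and 2423 bp after 12 h, and 3470 and 2600 bp after 24 h. *Stat5a*, its feedback inhibitor gene *Cish* and *Bmpr2* gained regions in wide stretches. *Jak2*, the kinase of the erythropoietin receptor, lost a peak of 648 and 921 bp that lay 62059 bp away. The *Jak2* peak was at the floor (score percentile 0.0447, with a score of 50.06 in 1 list against a lowest of 50.0). *Ptpn1* and *Ifnar1* lost peaks too. Survival and autophagy genes had gained regions in 3 of 40 cases and lost ones in 2. *Bcl2l11* (BIM, which promotes apoptosis) gained an intronic peak of 1453 and 1079 bp after 2 h and 1585 and 884 bp after 24 h, present in all 8 later lists. It lost 2 small peaks further away, of 847 and 686 bp and of 617 and 579 bp at 0 h (score percentiles 6.16 and 0.0866). *Xiap*, a caspase inhibitor, and *Map1lc3a*, of the autophagosome, gained distal peaks of at most 820 and 1479 bp.

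**Figure D4:**
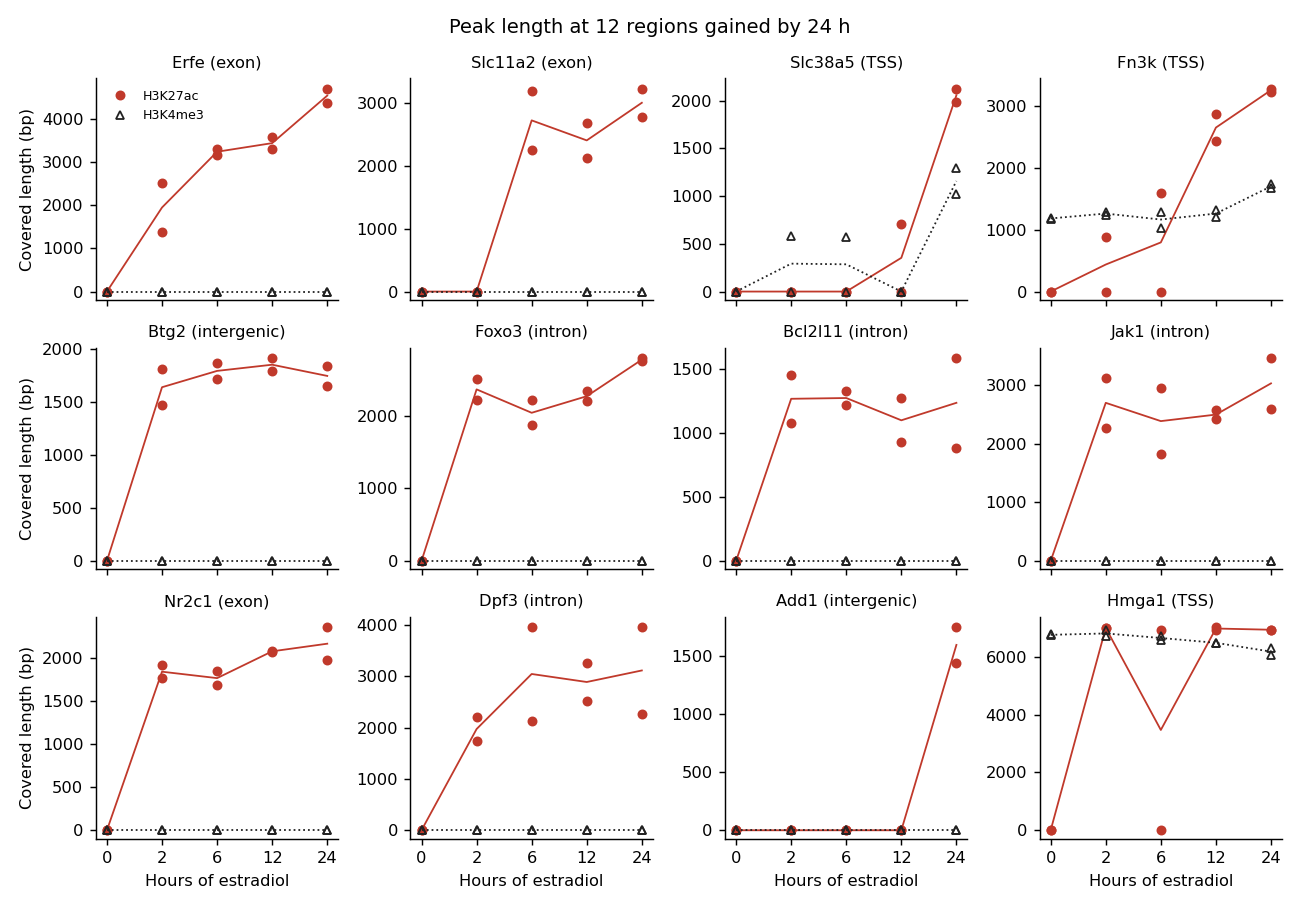
Bases covered by peaks (bp, vertical axes, each starting at 0) against hours of β-estradiol at 12 gained regions, with filled circles for H3K27ac and open triangles for H3K4me3, 2 lists per time point, and lines through the means. *Btg2*, *Foxo3*, *Bcl2l11*, *Jak1* and *Nr2c1* held a peak in all 8 later lists, *Slc11a2* from 6 h on, and *Add1* at 24 h alone, and the *Hmga1* promoter lay in a wide stretch.

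Mast cell and basophil genes had 1 gained (*Cma1*, wide) and 5 lost of 28 (17.9%), and all 5 lost genes lay outside wide stretches. Within 50 kb of a TSS the lost count was 3 of 28 (10.7%), and for genes within 10 kb of a region it was 3 of 27 (11.1%). *Tpsab1* encodes a mast cell tryptase. Its promoter region (chr17:25344067-25345687) covered 1179 and 1621 bp of H3K27ac at 0 h, was found in 1 list each at 2 h (1600 bp) and 6 h (1607 bp) and in both at 12 h (1621 and 1621 bp), and held no peak at 24 h. The score percentile of this H3K27ac peak at 0 h was 0.671, the lower of the 2 lists. H3K4me3 at the same *Tpsab1* region was present in all 8 lists up to 12 h (1383 and 1560 bp at 0 h, 1621 and 1439 bp after 12 h) and in neither at 24 h. A second *Tpsab1* region, 11079 bp from the TSS, held peaks of 2155 and 2213 bp at 0 h and in 1 list at 2 h. *Cpa3*, the mast cell carboxypeptidase, lost a region over a coding exon (2236 and 2970 bp at 0 h, in 4 of the 6 intermediate lists). *Alox5ap*, needed for leukotriene synthesis, lost a peak at a TSS, of 977 and 1148 bp at 0 h. In 24 h replicate 2, another H3K27ac peak still lay within 1 kb of an *Alox5ap* TSS. *Rgs13*, a regulator of G protein signaling, lost a peak of 977 and 937 bp, 63022 bp away.

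*Kit*, the receptor of stem cell factor and a gene that GATA1 represses, lost a peak 93169 bp from its TSS, with 1463 and 2257 bp at 0 h, 559 bp in 1 list at 6 h and 1115 bp in 1 list at 12 h. Just past the limit of 100 kb, at 111412 bp from *Kit*, lay a gained region of 5451 and 5313 bp with a score percentile of 53.8. That *Kit* region was in a wide stretch, was named after its values were seen, and was not counted with the gene. The promoters of *Kit* and *Gata2*, another gene repressed by GATA1, had no H3K27ac peak within 1 kb of the TSS in any of the 4 lists. The paper describes high GATA2 expression in undifferentiated cells, so the absence of a listed peak need not mean an unmarked promoter. No H3K27ac list held a peak above 8973 bp, and whether longer peaks are missing at these promoters was not tested.

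Stem and myeloid transcription factors had 2 gained and 2 lost of 25. *Zeb2* gained an intronic peak in all 8 later lists (2268 and 2384 bp after 2 h, 2435 and 2087 bp after 24 h). *Klf6* lost a peak 91487 bp away that covered 1102 and 1265 bp at 0 h and 1027 and 1117 bp after 2 h and was in 1 list at 6 h. *Erg* had a gained region in a wide stretch and a small lost one. Progenitor surface genes had 3 gained and 0 lost of 21, with *Cd34*, the adhesion ligand gene *Selplg* and the integrin gene *Itgal*. For genes within 10 kb of a region the progenitor surface counts were 0 gained and 1 lost of 20. The *Itgal* peaks were among the lowest scores (percentile 0.287). Megakaryocyte genes had 1 gained (*Treml1*) and 3 lost (*F2rl2*, *Rab27b*, *Mmrn1*) of 20. Of the macrophage and lymphoid genes near any region (10 and 3), 0 had a gained or lost one.

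Chromatin regulators had 4 gained and 6 lost of 37, with 3 of each outside wide stretches. *Kdm5b*, an H3K4 demethylase, gained 2 intronic regions, of 2671 and 2503 bp and of 2262 and 995 bp after 24 h, and *Asxl1* and *Dnmt1* gained 1 each. *Hmgb2*, a DNA-bending protein of dividing cells, lost a peak 7713 bp from its TSS. The *Hmgb2* H3K27ac peak covered 1466 and 1302 bp at 0 h, 1323 and 1484 bp after 2 h, 1201 and 1056 bp after 6 h, and 1379 and 1220 bp after 12 h, so its length was kept until 12 h. H3K4me3 at *Hmgb2* covered 779 and 753 bp at 0 h and 1056 and 1036 bp after 2 h and was absent from all 6 later lists. *Hdac1* and *Ep300* lost peaks of 1116 and 985 bp and of 1200 and 733 bp at 0 h. Of the promoters that the study captured, 5 of 40 had a gained and 8 a lost region. The study chose these genes for their change in expression in the same cells, so the list is not independent evidence. Beside genes named above, they were *Tmem44* (wide), *Pcx* and *Susd1* (gained) and *Atp1b2* (wide), *Dhrs11*, *Sept9*, *Abcb10* (wide) and *Plekho2* (lost).

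**Figure D5:**
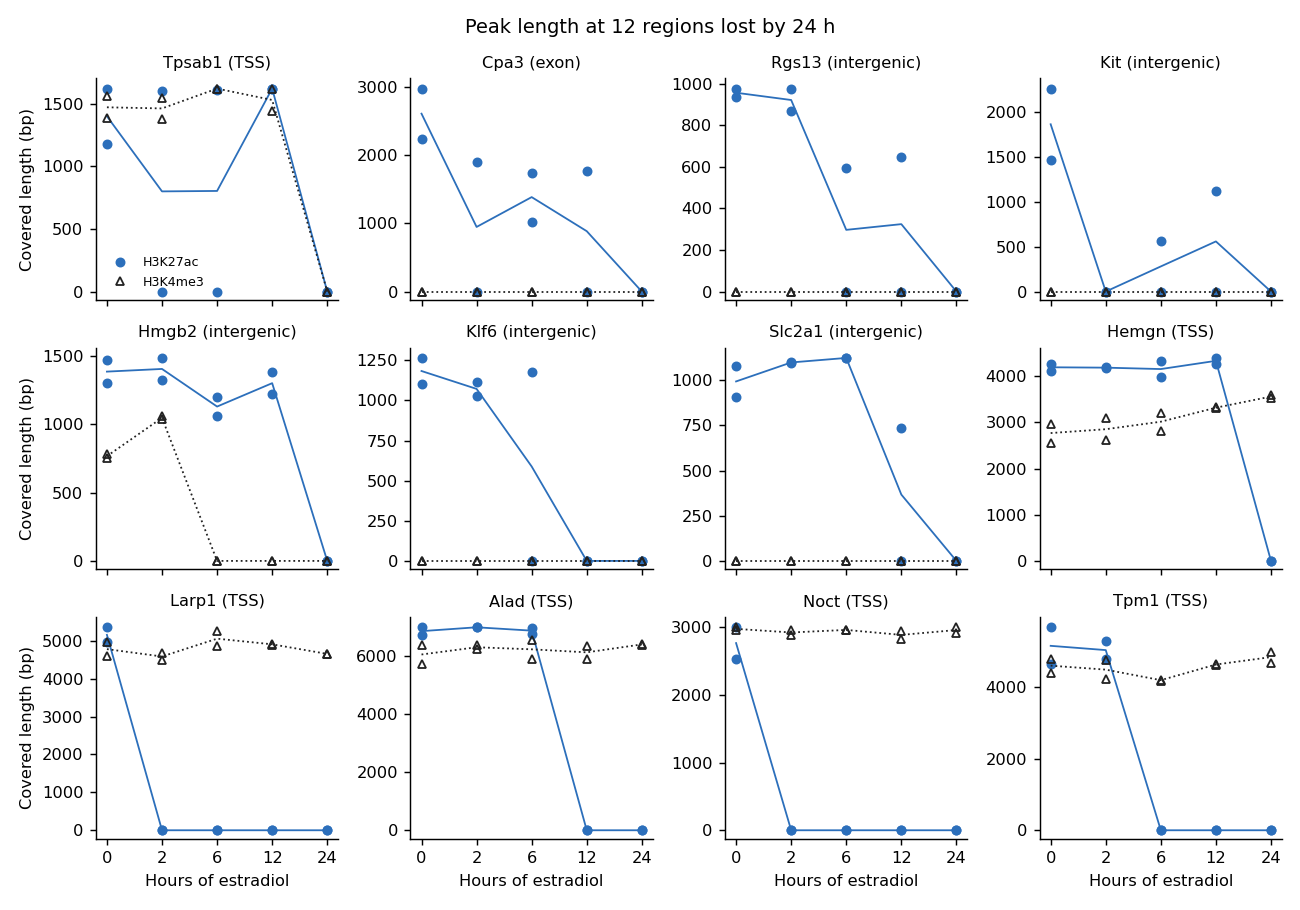
Bases covered by peaks (bp, vertical axes, each starting at 0) against hours of β-estradiol at 12 lost regions, with filled circles for H3K27ac and open triangles for H3K4me3, 2 lists per time point, and lines through the means. Both marks were gone at *Tpsab1* at 24 h, H3K4me3 left *Hmgb2* from 6 h on, and H3K4me3 was kept at *Hemgn*, *Larp1*, *Alad*, *Noct* and *Tpm1*, the last 3 in wide stretches.

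Several genes, most of them on none of the functional lists, collected more than 1 region. *Dpf3*, a subunit of BAF chromatin remodelers, and *Rere*, a corepressor, had 4 gained regions each (1 at *Rere* in a wide stretch), and 7 genes had 3, including *Fbxw7*, which targets MYC and cyclin E for degradation. The 4 *Dpf3* regions were intronic and differed in time. The *Dpf3* region 33334 bp from the TSS held a peak in all 8 later lists (2212 and 1729 bp after 2 h, 3951 and 2270 bp after 24 h), and another, 20076 bp away, held one in 1 of the 6 intermediate lists. Of the 3 *Fbxw7* regions, 1 was present at 24 h alone (1807 and 2247 bp). Among lost regions the most per gene was 3, in 6 genes, which included *Klf3* and *Spin1* outside wide stretches. All 3 regions at *Spin1*, a reader of H3K4me3, held a peak in at least 1 list at 2 h. Gained and lost regions shared 73 nearest genes, such as *Kat7*, a histone acetyltransferase, with 2 gained regions and 1 lost.

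By score, the leading regions were mostly promoters in wide stretches. Of the 8 gained regions with the highest percentile, all but *Erfe* were wide, and they included *Popdc2* (72.5), *Hmga1* (60.9), *Grk2* (60.7) and *Tmem44* (58.5). *Noct* (89.0), *Tmbim6* (85.5) and *Cop1* (77.9) led the lost regions, all 3 at promoters in wide stretches. At these lost promoters H3K4me3 did not leave with H3K27ac. At the *Noct* TSS, for example, H3K27ac covered 2999 and 2532 bp at 0 h and was in no later list, while H3K4me3 covered 2999 and 2952 bp at 0 h and 2999 and 2918 bp after 24 h. Over all lost regions at a TSS, both H3K4me3 lists held a peak at 111 of 129 at 0 h and at 105 at 24 h. Within wide stretches it was 78 of 80 at both times, and outside them 33 and 27 of 49.

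Outside wide stretches, the lost regions of highest score were mostly at promoters too, several of them of broadly used genes. The promoter of *Larp1*, which binds mRNAs of the translation machinery, covered 5353 and 4953 bp at 0 h and held no H3K27ac peak in any of the 8 later lists. That of *Eif3a*, a translation initiation factor, covered 4977 and 4858 bp at 0 h and none later. H3K4me3 covered 4583 and 4970 bp at 0 h and 4649 and 4653 bp after 24 h at *Larp1*. At *Eif3a* it covered 4242 and 4484 bp and then 4297 and 4425 bp. The stretches measured 5530 bp at *Larp1*, 4977 bp at *Eif3a* and 5051 bp at *Hemgn*, below the limit for wide ones. That limit counts listed peaks only, and whether longer peaks are missing at these promoters was not tested. At *Hemgn*, encoding the erythroid nuclear protein hemogen, the promoter peak was in all 8 lists up to 12 h (4116 and 4273 bp at 0 h, 4397 and 4271 bp after 12 h) and in neither at 24 h. H3K4me3 at *Hemgn* covered 2976 and 2563 bp at 0 h and 3584 and 3537 bp after 24 h (limma adjusted p = 0.25). *Fn3k*, which removes sugar adducts from proteins, led the gained promoters there with 3234 and 3285 bp after 24 h, having covered 2872 and 2436 bp after 12 h, and *Adcy7* followed with 3870 and 3433 bp. At *Fn3k* H3K4me3 covered 1186 and 1180 bp at 0 h and 1668 and 1737 bp after 24 h and did not pass the test (limma adjusted p = 0.0915).

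To test the members on libraries that had not chosen them, the covered length at 12 h was compared with that at 2 h by limma on log2(bp + 200) over the 6 H3K27ac lists at 2, 6 and 12 h. Of 18847 regions tested, 161 (0.854%) were longer and 107 (0.568%) shorter at 12 h with an adjusted p (Benjamini-Hochberg) under 0.05. Of the 844 gained regions, 581 could be tested, and 47 were longer and 1, at *Popdc2* (wide), shorter. Of the 1038 lost regions, 786 could be tested, and 24 were shorter and 5 longer. Among these, 16 of the 47, the *Popdc2* region, 8 of the 24 and 1 of the 5 had peaks only at the time when they were longer. They met the filter of 2 lists through that time alone and so had to differ. Outside wide stretches the counts were 40 and 0 of 498 gained regions and 16 and 3 of 672 lost ones. At an unadjusted p under 0.05, 130 gained regions were longer and 8 shorter, and 24 lost regions were longer and 100 shorter. The counts rest on few lists. Leaving out 1 list left 1 list at that time, and the direction of the calls was not stable. Without 12 h replicate 1, fewer gained regions were called longer than shorter. Without 2 h replicate 2, fewer lost regions were called shorter than longer. Without 12 h replicate 1, 12 h replicate 2, 2 h replicate 1 or 2 h replicate 2, the median log2 difference of gained regions was 1.13, 1.14, 0.67 and 1.05. That of lost regions was -0.27, -0.21, -0.47 and -0.33.

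In every member called here the peak was absent from both lists of 1 of the times. The gained promoter region of *Col5a1*, a fibrillar collagen gene, had a mean of 0 bp after 2 h and 3885 bp after 12 h (limma adjusted p = 0.000664). Those near *Eps15l1*, *Mavs* and *Irf2*, an interferon regulatory factor, had 2775.5, 2636.5 and 1467 bp after 12 h and 0 at 2 h (limma adjusted p = 0.00162, 0.00509 and 0.00741). *Slc11a2*, described above, passed with 2401 bp against 0 (limma adjusted p = 0.0109). The *Slc11a2* call was lost without 2 h replicate 1 (limma adjusted p = 0.0622) and without 12 h replicate 1 (0.0654), and its adjusted p reached 0.0868 over all alternatives. That of *Irf2* was lost without 12 h replicate 1 (limma adjusted p = 0.0535, up to 0.0686 over all alternatives). The calls of *Col5a1*, *Eps15l1* and *Mavs* held under every alternative that was fitted.

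The lost region with the smallest p was the wide promoter of *Alad*, which encodes the second enzyme of heme synthesis, with 6992 bp after 2 h and 0 at 12 h (limma adjusted p = 9.57e-05). H3K4me3 at *Alad* covered 6366 and 5744 bp at 0 h and 6410 and 6394 bp after 24 h. Outside wide stretches the leading regions were an intron of *Wapl*, which releases cohesin from chromatin (3014 bp after 2 h and 0 at 12 h, limma adjusted p = 0.00115), and the promoter of *Ech1*, of fatty acid oxidation (4282 bp and 0, in no list at 6 h, so that it met the filter through 2 h alone). The lost regions longer at 12 h were at *Vmn2r22* and *Elmo3*, both wide, and at *Dio1*, *C1rl* and *Tspyl4*.

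H3K4me3 libraries, also independent of the choice, were compared at 24 h and 0 h over the 10 lists. Of 12926 regions with enough H3K4me3 peaks, 62 (0.480%) were longer and 190 (1.47%) shorter at 24 h. Of the 1038 lost regions 265 could be tested, and 10 were shorter, none of them wide, and 5 longer, all of them wide. Of the 844 gained regions 122 could be tested, with 1 longer (*Tmem29*) and 5 shorter. Shorter ones were thus 4.1% of the gained and 3.77% of the lost regions tested, against 1.47% of all. The 5 were at *Ppm1d* and *Hoxc4* and, in wide stretches, at *Igf2bp1*, *Emilin2* and *Max*. This *Max* region is not the one described above, which was not wide. Peaks only at the time when they were longer were found at 3 of the 10, 2 of the 5 longer lost regions, *Tmem29* and 2 of the 5 shorter gained ones, which therefore had to differ. The *Tpsab1* promoter had the smallest p among the members (mean 1471.5 bp at 0 h and 0 at 24 h, limma adjusted p = 0.000137), and *Hmgb2* was also shorter (766 bp and 0, limma adjusted p = 0.00123). These calls passed in all 10 alternatives, with adjusted p from 2.4e-05 to 0.0155 for *Tpsab1* and from 0.000871 to 0.0351 for *Hmgb2*. The others were at *Ube2e3*, *Bcl2l15*, *Fkbp5* (which encodes a chaperone of steroid receptors, 1299 bp and 0), *Gm10306* and *Gng2*, and, with peaks at 0 h alone, at *Tlk1*, *Cdkl3* and *Rtl5*. Without 0 h replicate 1 or 2, 6 and 5 lost regions were shorter. Those longer at 24 h were at *Arrb1*, *Smim1* and *Ranbp10* and, with peaks at 24 h alone, in introns of *Pdzd8* and *Noct*.

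CTCF, a protein of loop anchors, had a peak in 17.5% of gained regions at 0 h (95% Wilson interval 15.1 to 20.2) and 21.3% at 24 h (18.7 to 24.2), and in 15.8% (13.7 to 18.1) and 18.2% (16.0 to 20.7) of lost regions. In regions with H3K27ac in all 4 lists the shares were 30.3% and 37.7%. Those regions were longer (median 2930 bp, against 1739.5 bp for gained and 1465 bp for lost regions) and more often held a TSS. Among regions at a TSS, the 0 h shares were 32.8% for gained, 34.1% for lost and 34.1% for those in all 4 lists. At 24 h they were 34.4%, 44.2% and 43.5%. The intervals cover counting error only, and the CTCF list at 24 h held more peaks in all (41473 against 33193). Of the gained regions 138 had CTCF at both times, 42 at 24 h alone and 10 at 0 h alone, and of the lost regions 150, 39 and 14, so the 24 h list had more in either direction. CTCF peaks at 24 h alone lay in the gained *Prdx1* and *Fbxw7* regions and in the lost *Hemgn* and *Dhrs11* promoters.

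As a check of the label, H3K27ac lay within 1 kb of the TSS for 75.0% of 24 heme genes in both 0 h lists and 70.8% in both 24 h lists, and for 57.5% to 62.5% of 40 red cell membrane genes. Over all protein-coding genes the share was 42.3% to 43.3%. *Klf1* and *Slc4a1* (band 3) were marked in all 4 lists, and *Alas2*, of heme synthesis, in the 24 h lists alone within that window. Its promoter region is not a member because the 0 h peaks of *Alas2* begin further inside the gene. Mast cell genes had marked promoters in 41.7% of cases at 0 h and in 36.1% and 38.9% at 24 h. Macrophage genes had 14.8% at 0 h and 14.8% and 7.41% at 24 h, lymphoid genes 4.0% (1 of 25 genes) and megakaryocyte genes 30.3% in each of the 4 lists. *Lyz2*, *Cd3e* and *Pf4*, defining genes of these other cells, had no peak there in any of the 4 lists. The H3K27ac lists held 17247 to 18333 peaks each, with the lowest number in 24 h replicate 2. With equal numbers of top-scoring peaks in each list, 912 regions were gained and 883 lost, so the larger count changed sides.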

How the data were processed

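Peak lists of H3K27ac, H3K4me3 and CTCF ChIP-seq were taken as the authors deposited them, with 2 replicate lists of each histone mark per time point. Before deposit, the authors used Bowtie2 against mm10, kept uniquely mapped reads and called peaks per library with MACS (--nomodel). The score deposited with each peak is the authors' value (lowest 50.0), used here only to rank or filter peaks. MACS version, control and threshold, and all such steps for CTCF, are not given in the sources used here. The labels also name a human build, but 0 peaks ran past a mouse chromosome end. The lists hold no read counts, so depth per sample and its precision are unknown.

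Peaks of the 4 lists were merged where they touched. Genes were those of GENCODE M21 (GRCm38). Bases covered by peaks were tested with limma 3.58.1 (R 4.3.3; lmFit, eBayes with trend) on log2(bp + 200), with a mean per time point and a peak in at least 2 lists. The step was tested on simulated data. The study describes the replicates as independent experiments in 1 cell line, and p-values measure the spread between them. Named genes were those with the most regions, list genes, the regions of highest score (all and at a TSS), called regions with the smallest p, and genes with both kinds. The leading regions outside wide stretches were added after the values were seen. The members and gene lists were chosen with earlier results of these data known. Values of a few list genes are not reported here. Of 43 captured promoters matched, 40 were nearest to a region. Alternatives covered scores, merging, gene assignment, pseudocounts, filters, a replicate block, windows and leaving out lists. Tables were handled with pandas 2.3.3 and numpy 2.4.6, figures drawn with matplotlib 3.10.9, and scripts run in Python 3.11.15 (scipy 1.17.1).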

Additional observations from a re-analysis of the deposited data

How the results depend on the processing

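Peaks at or above the median score gave 233 gained and 484 lost regions, in place of 844 and 1038. Leaving out 1 list gave 1226 to 1877 gained and 1546 to 2043 lost regions, since a rule on fewer lists is easier to meet. Outside wide stretches, a definition added after seeing the data, 31 list genes had a lost region. GATA letters rose to 92.1% and 87.2% with 1000 bases, as more sequence was read, and CTCF within 1 kb to 22.3% and 27.7% of gained and 19.0% and 23.5% of lost regions (0 h and 24 h).

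For H3K27ac at 12 h against 2 h, asking for peaks in 4 or more lists gave 94 longer and 68 shorter regions, 26 of them gained and longer and 13 lost and shorter. With higher-scoring peaks the counts were 63 shorter, 1 gained and longer, and 3 lost and shorter. Leaving out 1 list gave 41 to 252 longer, 45 to 178 shorter, 5 to 37 gained and longer, and 7 to 31 lost and shorter. For H3K4me3 at 24 h against 0 h, higher-scoring peaks gave 19 longer and 73 shorter, 0 gained and longer, and 4 lost and shorter. At least 4 lists gave 115 shorter and 0 gained and longer. A fit to the 4 lists alone gave 428 shorter, 3 gained and longer, and 27 lost and shorter. Leaving out 1 list gave 23 to 29 longer, 63 to 221 shorter, 0 gained and longer, and 5 to 13 lost and shorter. A list left alone at its time is assumed to vary like the others. For H3K27ac, gained regions were more often shorter than longer without 12 h replicate 1. Lost regions were more often longer than shorter without 2 h replicate 2. The cause of these shifts was not tested.

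Same-numbered lists shared only a number. The correlation of their deviations was 0 to 0.03 over 3 pairs for H3K27ac and -0.13 to 0.05 over 10 pairs for H3K4me3. With the replicate block, H3K27ac gave 27 longer, 36 shorter, 4 gained and longer, and 5 lost and shorter, and H3K4me3 gave 44, 128, 1 and 8. Of the 31 named regions called, 20 were called with the block too, and none changed sign in any alternative. Depth limits every absence in a list, because a weak mark can fall under the caller's threshold.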
